A study of Sus scrofa with 18 samples.

Results

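PPP1R3B, PPP1R3G and SLC2A5 are 3 of the 522 genes in the deposited table of mRNAs that differed between the HC-L and HC-P skeletal muscle of adult Hechuan black pigs. PPP1R3B and PPP1R3G encode subunits that place protein phosphatase 1 on glycogen, and SLC2A5 encodes the fructose carrier GLUT5. The genes were chosen by symbol from that table, which holds only genes that the authors called in this contrast, so their signals, fold changes and adjusted p-values in it are a description and carry no test here. All 3 symbols were found, each once, under the Ensembl identifiers ENSSSCG00000022797 (PPP1R3B), ENSSSCG00000000997 (PPP1R3G) and ENSSSCG00000039651 (SLC2A5). The mRNA part has 3 libraries of HC-L muscle and 3 of HC-P muscle, and all animals are described as castrated sows. No group was treated. The design text sets an oxidative against a glycolytic muscle, but no label ties HC-L or HC-P to a fibre type or says whether the libraries come from separate pigs. Small RNA of the same kinds of tissue was counted in 3 HC-L and 3 HC-P libraries, and in 3 exosome libraries of each muscle.

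Muscle stores glucose as glycogen. Glycogen synthase is active when dephosphorylated, and glycogen phosphorylase is switched off by the same removal of phosphate. Protein phosphatase 1 does both, once a glycogen-targeting subunit of the PPP1R3 family holds its catalytic subunit on the glycogen particle. The targeting subunits carry a carbohydrate-binding domain and differ by tissue: PPP1R3A is the subunit long known from striated muscle, PPP1R3B was first described in rat liver and is also made in human muscle, and PPP1R3G has been studied mostly in mouse liver after feeding. GLUT5 belongs to the SLC2 family of facilitative hexose carriers and takes up fructose rather than glucose. It is best known from the small intestine and is also found in human skeletal muscle.

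All 3 genes had lower signal in HC-L than in HC-P muscle. The signal is the unit of the deposited table. Within a library all its values are whole numbers of a fixed step (to within 0.02 of a step), as they are when reads are counted and then scaled. No gene length enters into them, so levels are compared between libraries and never between genes. Libraries are called by their deposited headings, HC1_L to HC3_L and HC1_P to HC3_P. A step was worth between 0.895 and 1.21 signal units, though too few low values are present to check that a step is 1 read. In bulk tissue, fewer cells of a type and less RNA per cell cannot be told apart.

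By the ratio of the means over all libraries PPP1R3B differed most of the 3, but by group medians (-2.07 for PPP1R3B and -2.70 for SLC2A5, log2) or without HC3_L (-1.89 and -3.26) SLC2A5 differed more. PPP1R3B was at 1909, 1605 and 284 in HC1_L, HC2_L and HC3_L, against 7938, 6749 and 4879 in HC1_P, HC2_P and HC3_P. The groups did not overlap: the lowest HC-P library was 2.56 times the highest HC-L library. HC3_L stood well below the other HC-L libraries, and the HC-L values spanned 6.72-fold against 1.63-fold among the HC-P values. The means were 1266 ± 864 in HC-L and 6522 ± 1542 in HC-P (SD, n = 3 each), a log2 ratio of HC-L over HC-P of -2.37. The authors' deposited table gives a log2 fold change of -2.37 and an adjusted p of 0.000795. By size this was the 30th of the 166 genes listed as lower in HC-L.

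PPP1R3G, the second targeting subunit, differed less. Its signal was 459, 241 and 662 in HC1_L, HC2_L and HC3_L, against 983, 1345 and 1047 in HC1_P, HC2_P and HC3_P. Here HC3_L was the highest HC-L library, the reverse of its place for PPP1R3B, and the lowest HC-P library was 1.48 times it. The means were 454 ± 211 in HC-L and 1125 ± 193 in HC-P (SD, n = 3 each), a log2 ratio of -1.31. For this gene the authors' deposited table gives -1.31 with an adjusted p of 0.013.

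SLC2A5, the fructose carrier, was the most variable of the 3 in HC-L muscle. Its signal was 85.4, 35.1 and 341 in HC1_L, HC2_L and HC3_L, against 691, 554 and 490 in HC1_P, HC2_P and HC3_P. HC3_L lay 9.73-fold above HC2_L, and the lowest HC-P library was 1.44 times HC3_L. The HC2_L value corresponds to 29 steps, the fewest for any of the 3 genes in any library. The means were 154 ± 164 in HC-L and 578 ± 103 in HC-P (SD, n = 3 each), a log2 ratio of -1.91. The authors' deposited table gives -1.91 with an adjusted p of 0.0481, close to its upper limit: the highest adjusted p in the table is 0.0498, and 10 of its genes lie above SLC2A5. Genes beyond that limit were not analysed here.

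**Figure D1:**
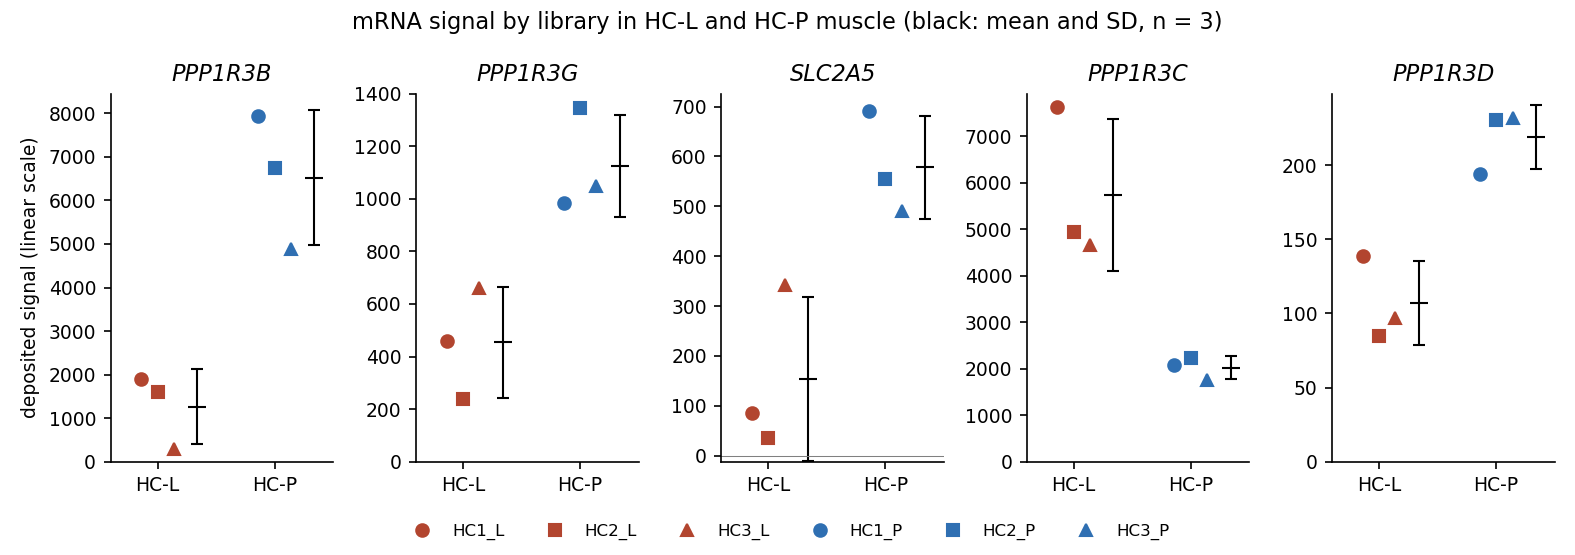
Deposited mRNA signal (linear scale, a separate axis per gene) in the 3 HC-L and 3 HC-P libraries for PPP1R3B, PPP1R3G, SLC2A5, PPP1R3C and PPP1R3D. Points are libraries, with a marker shape per heading, and black bars are mean and SD. PPP1R3C is the one gene here with its higher values in HC-L, and HC3_L is lowest of the HC-L libraries for PPP1R3B but highest for PPP1R3G and SLC2A5.

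The spread within HC-L was large for PPP1R3B and SLC2A5 compared with other genes of the table. On the log2(signal + 1) scale the SD over the HC-L libraries was 1.52 for PPP1R3B and 1.64 for SLC2A5, the 26th and 17th largest of the 522 genes, whose median SD in HC-L was 0.48. For PPP1R3G it was 0.74. Over the HC-P libraries the SDs were 0.36 for PPP1R3B, 0.24 for PPP1R3G and 0.25 for SLC2A5, against a median of 0.40 for all genes of the table. The HC-P libraries thus lay closer together than the HC-L libraries for each of the 3 genes.

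HC3_L held the highest HC-L value for 87 of the 166 genes listed as lower in HC-L (52.4%) and the lowest for 34 (20.5%). PPP1R3G and SLC2A5 are among the 87 and PPP1R3B among the 34. Without HC3_L the log2 ratio of SLC2A5 was -3.26 and that of PPP1R3G -1.69, both farther from 0, while that of PPP1R3B was -1.89, nearer to 0. Leaving out each of the 6 libraries in turn gave -2.79 to -1.89 for PPP1R3B, -1.69 to -1.0 for PPP1R3G and -3.26 to -1.44 for SLC2A5. For SLC2A5, leaving out HC3_L thus moved the log2 ratio of the means from -1.91 to -3.26. The direction could not change, since the groups did not overlap.

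**Figure D2:**
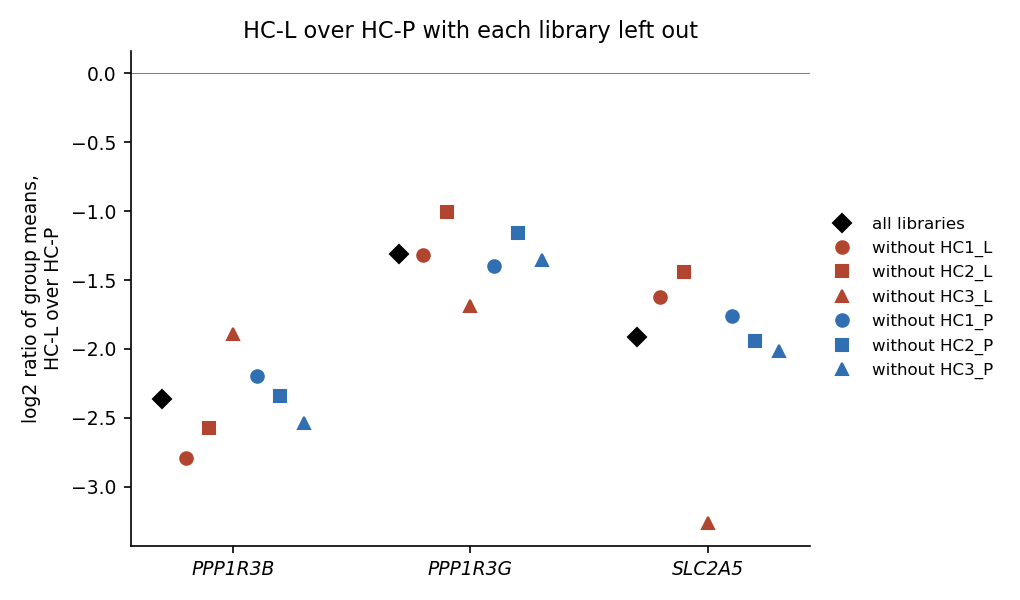
Log2 ratio of the group means, HC-L over HC-P, for the 3 genes with all libraries (black diamonds) and with each of the 6 libraries left out (red for HC-L libraries, blue for HC-P libraries). All values are below 0, as groups without overlap must give. The lowest, -3.26, is SLC2A5 without HC3_L.

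The table as a whole sets the scale for these values. In it 356 genes are listed as higher in HC-L and 166 as lower, which is 31.8% lower, and the median of the authors' log2 fold changes is 1.41 over all 522 genes and -1.43 over the lower ones. All 3 genes are on the less frequent side. Their groups did not overlap, but the same holds for all 166 genes on that side (31.8% of the 522). It is thus a property of the listed genes and says nothing particular about the 3. The ratio of adjusted to unadjusted p-values in the authors' deposited table shows that the adjustment covered 14206 genes: for the 5 smallest p-values it equals 14206 divided by the rank. The 522 genes of the table are then 3.67% of the genes adjusted over, and the 166 lower ones 1.17%. Since the 3 genes were taken from among the 166, nothing can be read from their count against that share.

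**Figure D3:**
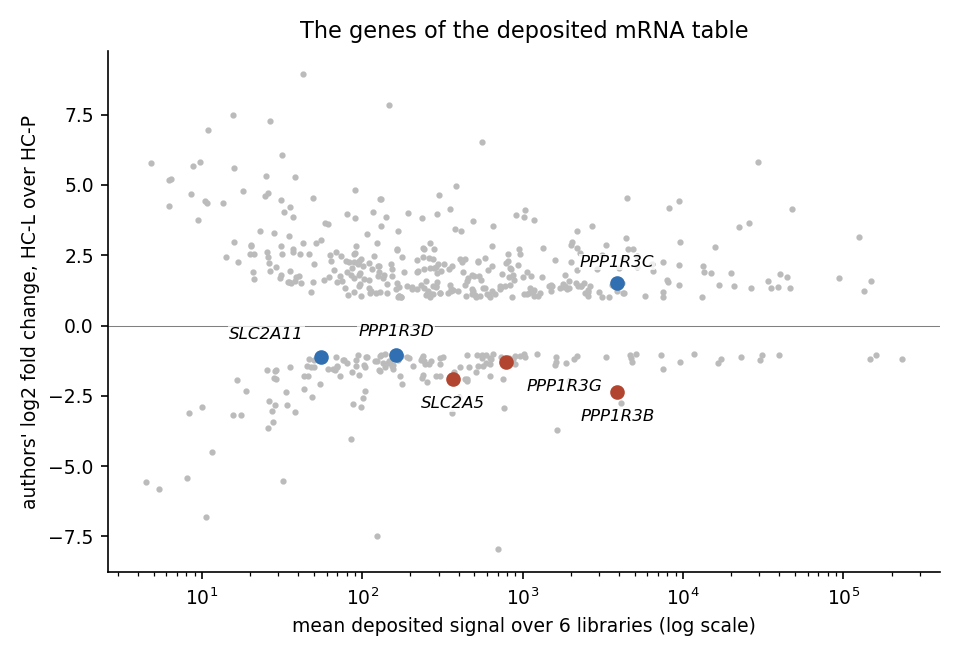
Authors' log2 fold change, HC-L over HC-P, against the mean deposited signal over the 6 libraries (log scale) for the 522 genes of the table (grey). Red points are PPP1R3B, PPP1R3G and SLC2A5, and blue points are PPP1R3C, PPP1R3D and SLC2A11. The table holds no gene within a log2 fold change of 1.00 on either side of 0, and PPP1R3B, at -2.37, lies lowest of the 6 coloured points.

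The family of glycogen-targeting subunits did not move in a single direction. Of 29 genes on a list for the control of the enzymes of glycogen metabolism, 4 are in the table, beside 3.67% of all genes adjusted over. PPP1R3B and PPP1R3G were taken from the table, so nothing is read from that count. All 4 are targeting subunits: PPP1R3B, PPP1R3G and PPP1R3D are listed as lower in HC-L, and PPP1R3C as higher. The median log2 fold change of the 4 in the authors' deposited table is -1.17, against 1.41 for all its genes. With PPP1R3B and PPP1R3G among the 4, this median partly restates how the genes were chosen. PPP1R3C, also called protein targeting to glycogen, had a signal of 7622, 4931 and 4666 in HC1_L, HC2_L and HC3_L, against 2079, 2233 and 1753 in HC1_P, HC2_P and HC3_P. The lowest HC-L library was 2.09 times the highest HC-P library. The means were 5740 ± 1635 in HC-L and 2022 ± 245 in HC-P (SD, n = 3 each), and the authors' deposited table gives a log2 fold change of 1.51 with an adjusted p of 2.4e-06. PPP1R3D, a more widely expressed targeting subunit, was at 139, 84.7 and 97.1 in the HC-L libraries, against 194, 231 and 232 in the HC-P libraries. Its log2 fold change in the authors' deposited table is -1.03, near the smallest that the table holds (1.00 in absolute value), with an adjusted p of 0.0155. Neither PPP1R3A nor the other listed subunits (PPP1R3E and PPP1R3F) are in the table, which does not show that they were unchanged.

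The opposite directions can be followed inside each library, where the scaling between libraries drops out. The log2 ratio of PPP1R3B to PPP1R3C signal was -2.0, -1.62 and -4.04 in HC1_L, HC2_L and HC3_L, against 1.93, 1.60 and 1.48 in HC1_P, HC2_P and HC3_P. The mean ratio was -2.55 ± 1.30 in HC-L and 1.67 ± 0.24 in HC-P (SD, n = 3 each), a difference of -4.22 on the log2 scale, and of -3.48 without HC3_L. The mean ratio of PPP1R3G to PPP1R3C was -3.74 ± 0.82 in HC-L and -0.85 ± 0.20 in HC-P. That of PPP1R3D to PPP1R3C was -5.74 ± 0.14 in HC-L and -3.21 ± 0.26 in HC-P, with no library standing apart. In every HC-L library each of the 3 subunits was lower relative to PPP1R3C than in every HC-P library. Each of these genes, PPP1R3C included, already had groups without overlap in the deposited signal. The separation of the ratios was thus given in advance and is only a description. The sign of a single ratio depends on the lengths of both genes and is not read here; the shift between the groups does not.

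**Figure D4:**
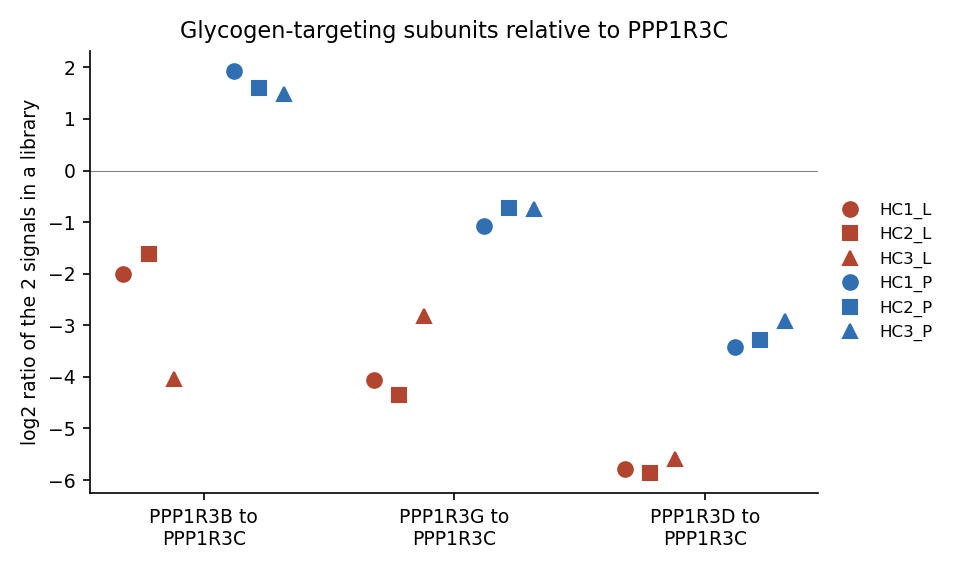
Log2 ratio of the signals of PPP1R3B, PPP1R3G and PPP1R3D to that of PPP1R3C within each library, for 3 HC-L libraries (red) and 3 HC-P libraries (blue). For all 3 pairs the HC-L points lie below the HC-P points, and HC3_L lies apart from the other HC-L libraries for PPP1R3B (-4.04). The separation follows from the signals of the genes themselves, whose groups do not overlap.

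PPP1R3B and PPP1R3G, both lower in HC-L, differed in pattern mainly through 1 library, HC3_L. Their log2 ratio within a library was 2.06, 2.74 and -1.22 in HC1_L, HC2_L and HC3_L, against 3.01, 2.33 and 2.22 in HC1_P, HC2_P and HC3_P. HC3_L lay far below the HC-P range, HC1_L just below it and HC2_L inside it, so on this scale the groups overlap.

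The list of glycogen synthesis and breakdown held 17 genes, among them glycogen synthase, glycogenin, the branching and debranching enzymes and the phosphorylases. Of these, 0 are in the table, which at 3.67% of all genes adjusted over is no result about the list. The list that gave the 4 targeting subunits also held the phosphorylase kinase, AMP-activated kinase and catalytic phosphatase subunits, and none of those is listed either. The names of 14 of the 17 and 28 of the 29 genes were known to the gene name table for pig.

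Among 13 hexose carriers of the SLC2 family, 2 are in the table (3.67% of all genes adjusted over), SLC2A5 and SLC2A11, and both are listed as lower in HC-L. SLC2A5 was taken from the table, so nothing is read from this count either. SLC2A11, a further facilitative carrier whose symbol came from the gene name table and not from the authors, was at 38.2, 29.0 and 36.3 in the HC-L libraries, against 68.9, 78.3 and 80.6 in the HC-P libraries. Its log2 fold change in the authors' deposited table is -1.13 with an adjusted p of 0.0322, and its HC-L libraries lie close together, unlike those of SLC2A5. The main insulin-responsive carrier of muscle, SLC2A4, is not listed. Of 11 genes of fructose and polyol metabolism, such as ketohexokinase (KHK), 0 are listed. Listed means called by the authors, so absence from the table is no measure of these genes.

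Of 39 genes of glycolysis and lactate handling, 2 are in the table, beside 3.67% of all genes adjusted over. ALDOC, an aldolase, is higher in HC-L, at 72.3, 432 and 210 in the HC-L libraries and 59.1, 63.4 and 86.9 in the HC-P libraries, and its groups overlap. PDP1, the phosphatase that activates the pyruvate dehydrogenase complex, is lower, at 516, 327 and 319 in the HC-L libraries and 1090, 885 and 694 in the HC-P libraries. The authors' deposited table gives adjusted p-values of 0.0338 for ALDOC and 0.00292 for PDP1. Of 24 genes of insulin and nutrient signalling, 2 are listed: TRIB1, a pseudokinase, is higher in HC-L (7866 ± 5736 in HC-L against 1203 ± 660 in HC-P; SD, n = 3 each), and PIK3R1, the regulatory subunit of phosphoinositide 3-kinase, is lower (390 ± 62.6 in HC-L against 870 ± 215 in HC-P).

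The genes most alike to each of the 3 were found by the root mean square difference of log2(signal + 1) over the 6 libraries, after centring each gene on its mean. All genes of the table were selected on the same contrast, so likeness partly follows from how they were listed. For PPP1R3B the nearest was HOXA7, a homeobox gene, with a difference of 0.35; its signal was 141, 143 and 25.4 in HC1_L, HC2_L and HC3_L, against 361, 394 and 355 in HC1_P, HC2_P and HC3_P. It shares the low HC3_L value. FAM43B (0.73) and ARHGEF33 (0.76) came next. For PPP1R3G the nearest were ILVBL (0.20), LPL (0.23) and GOT1 (0.24), the last 2 encoding lipoprotein lipase and the cytosolic aspartate aminotransferase. In all 3 of them HC3_L was the highest HC-L library. For SLC2A5 the nearest were the lipid droplet gene PLIN5 (0.54), the homeobox gene PITX3 (0.54) and TRNP1 (0.62). PLIN5 was at 84.4, 46.0 and 404 in HC1_L, HC2_L and HC3_L, against 1458, 1333 and 1283 in the HC-P libraries. Between the 3 genes themselves, PPP1R3G and SLC2A5 differed by 0.80, PPP1R3B and PPP1R3G by 1.41 and PPP1R3B and SLC2A5 by 1.78.

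Some markers of other cells are in the table, of which 356 of the 522 genes are listed as higher in HC-L. Of 10 adipocyte markers, 7 are in it, beside 3.67% of all genes adjusted over. Listed as higher in HC-L are 6 of them (ADIPOQ, PLIN1, LEP, CIDEC, FASN and SCD), and LPL, which muscle fibres also make, is listed as lower. The summed signal of the 7 ran from 8214 to 12526 in the HC-L libraries and from 13128 to 17301 in the HC-P libraries. Without LPL it ran from 3227 to 6391 in HC-L and from 1177 to 1396 in HC-P, and none of the 7 was listed at 0 in any library. Most of the sum without LPL came from FASN and SCD in every library. For HC1_L they stood at 1823 and 998 of a sum of 3227. The HC1_P values were 841 and 222 of a sum of 1177. ADIPOQ, PLIN1, LEP and CIDEC were each higher in HC-L too, without overlap between the groups. Between the groups, the 3 genes had lower signal where the listed adipocyte markers other than LPL were higher, as their listed directions already give. Within HC-L this order was not kept throughout: the sum without LPL was 4166 in HC3_L and 3227 in HC1_L. Yet PPP1R3G and SLC2A5 were higher in HC3_L than in HC1_L, while PPP1R3B was lower. The part of these cells in the differences was not tested. Of 15 fast-fibre markers, TNNC2 and TPM1 are listed, both as higher in HC-L, and of 12 slow-fibre markers 0 are. The names of 13 of the 15 and 9 of the 12 were known to the gene name table. Beside 3.67% of all genes adjusted over, nothing is read from these counts. For both genes the groups overlap: HC2_P, at 105485 for TNNC2 and 56800 for TPM1, lay above HC3_L. In HC3_L, TNNC2 was at 85321 and TPM1 at 56382, against 226263 and 193184 in HC1_L and 256100 and 183455 in HC2_L. This library thus stood below the other HC-L libraries for both sarcomere genes, as it did for PPP1R3B. For SLC2A5 it stood above them. Both genes of the contractile apparatus had high signal in all 6 libraries, as the tissue label has it. In the list for vessels and smooth muscle, 1 of 10 genes (TAGLN, higher in HC-L) is in the table. Of the lists for leukocytes, fibroblasts, nerve and red cells 0 are. At a share of 3.67% of all genes adjusted over, these counts are no result about those cells.

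The authors' table relates miRNAs to 320 of its 522 genes (61.3%), by a rule not given in the sources used here. It names 6 for PPP1R3B, 4 for PPP1R3G and 5 for SLC2A5, where the median over the genes with any is 6. The small RNA libraries were not used to choose the 3 genes, so the levels of these 15 miRNAs could be tested. Read counts of 12 libraries were fitted together with edgeR's quasi-likelihood test, and HC-L tissue was compared with HC-P tissue. The tissue libraries held between 3964875 and 9016010 miRNA reads. Of the 15 miRNAs, 10 had fewer than 50 reads over all 6 tissue libraries, 3 of them none at all, and 5 had enough reads to be tested. Those below the minimum include miR-671-5p, with 32 tissue reads, and novel_294, with 9, both related to SLC2A5.

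None of the 5 passed the edgeR test between HC-L and HC-P tissue after Benjamini-Hochberg adjustment over the 252 miRNAs tested. Of those 252, 0 passed an adjusted p of 0.05 (0.0%), 28 had an unadjusted p under 0.05, and DESeq2 also called 0 (27 unadjusted). For PPP1R3B, miR-22-5p was at 203, 153 and 200 counts per 1000000 (CPM, scaled by TMM) in HC-L tissue and at 115, 192 and 171 in HC-P tissue, with overlapping groups and a log2 fold change of 0.22 ± 0.44 (SE; edgeR adjusted p = 0.84). The predicted miRNA novel_414 was at 31.4, 36.8 and 23.4 CPM in HC-L and at 223, 31.0 and 22.4 in HC-P (-1.59 ± 1.22; edgeR adjusted p = 0.626). miR-7137-3p had 92 reads over the tissue libraries, with a log2 fold change of 0.06 (edgeR adjusted p = 1). For PPP1R3G, miR-331-3p was at 19.3, 19.3 and 18.9 CPM in HC-L and at 95.6, 17.8 and 16.5 in HC-P (-1.18 ± 0.71; edgeR adjusted p = 0.561). For SLC2A5, miR-455-3p was at 9.39, 7.06 and 8.74 CPM in HC-L and at 63.1, 6.20 and 7.67 in HC-P (-1.61 ± 0.85; edgeR adjusted p = 0.555). In novel_414, miR-331-3p and miR-455-3p the negative fold changes rest on HC-P tissue replicate 1 alone: without it they were 0.068, 0.029 and 0.15. That small RNA library stood apart from the other tissue libraries for these 3 miRNAs. It also had the fewest miRNA reads of the tissue libraries (3964875) and a TMM factor of 1.61, against 0.53 to 0.76 in the others. Without it, 4 of 221 miRNAs had an unadjusted edgeR p under 0.05.

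**Figure D5:**
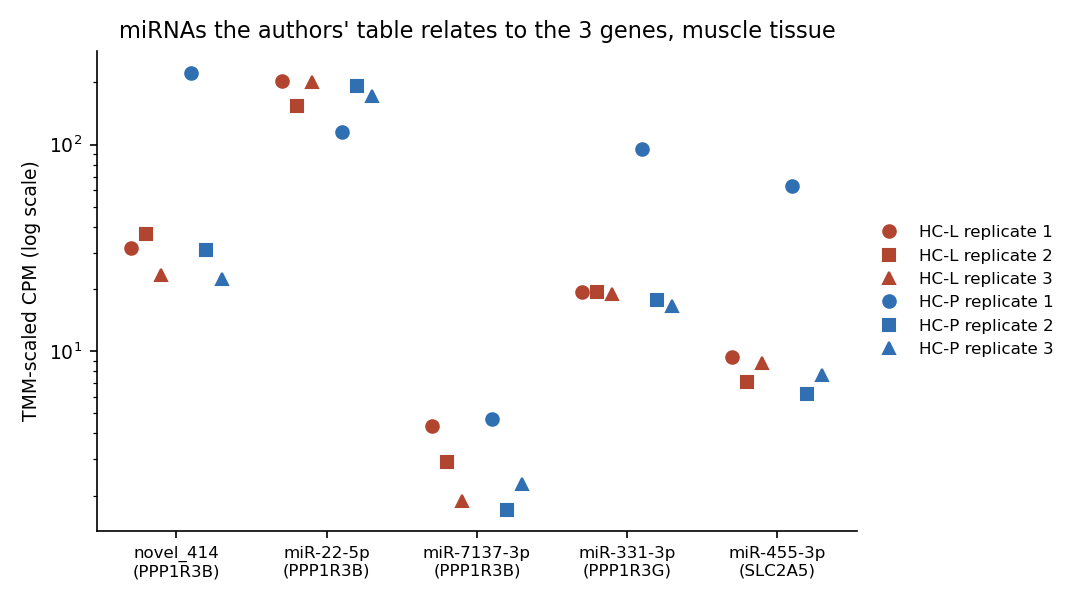
TMM-scaled CPM (log scale) of the 5 tested miRNAs that the authors' table relates to PPP1R3B, PPP1R3G or SLC2A5, in 3 HC-L (red) and 3 HC-P (blue) tissue libraries of small RNA. HC-P replicate 1 is far above the other 5 libraries for novel_414, miR-331-3p and miR-455-3p, and the remaining libraries of both muscles lie together.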

How the data were processed

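The mRNA values are a deposited signal per gene and library, with the authors' group means. The table also holds log2 fold changes (HC-L over HC-P), p-values and adjusted p-values by the authors. Read alignment, counting, testing and genome build were not given in the sources used here. Column names of the table fit more than 1 sample each, so columns were assigned to groups only. Its genes were already called, so no test was run on it. Depth is known only through the steps described above. A pig gene name table matched 406 of the 522 identifiers. Small RNA read counts per miRNA are as deposited by the authors, and their TPM values are those counts scaled to 1000000 per library, per the file headers. The miRNA test used R 4.3.3 and edgeR 4.0.16 (filterByExpr, TMM, a coefficient for each of 4 groups; Benjamini-Hochberg adjustment), with DESeq2 1.42.0 as an alternative. It was checked on simulated counts. It was added after the files had been seen. Same-numbered HC-L and HC-P tissue libraries deviated together from their group means only weakly (correlations across miRNAs 0.17, 0.13 and 0.23). Libraries of different number gave -0.17 to 0.031. No label says that the numbers pair libraries, and they were taken to do so only in an alternative fit with a replicate block. The main test did not use this pairing. P-values measure only the spread between these libraries, which may be technical. The members and the gene lists were chosen with earlier results of these data known. Genes named are the 3, the listed genes in the table, and the 3 genes most alike to each.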

Additional observations from a re-analysis of the deposited data

How the results depend on the processing

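The 3 genes kept a negative log2 ratio of HC-L over HC-P in every alternative run: each library left out, pseudocounts of 1 and 10, group medians, and both rescalings within the table. Their groups did not overlap, so outside the rescalings this sign was given in advance and only the sizes are informative. Scaling by the median of ratios gave -3.52 for PPP1R3B and -2.31 for PPP1R3G, but this table holds mostly genes higher in HC-L, and that scaling moved the median log2 ratio of all its genes by -1.08 (scaling to the table total by -0.61). The log2 ratio of PPP1R3C was 0.43 and 0.92 under these scalings and kept its sign. For SLC2A5, leaving out a library gave -3.26 to -1.44. With an adjusted p of the authors under 0.01, the lower genes of the table numbered 101, and the listed genes 2 for the control of glycogen enzymes (PPP1R3B and PPP1R3C), 0 for the SLC2 carriers and 1 for glycolysis. At an absolute log2 fold change of at least 2, 171 genes were higher and 38 lower. The insulin and nutrient list held 1 to 2 genes with a library left out, counted where an absolute log2 ratio of at least 1 was kept. Of the 9 genes named as most alike, 7 were named with a pseudocount of 10.

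Without a filter on low counts, edgeR called 28 of 444 miRNAs, all lower in HC-L, and novel_414 was then among them (-2.01, adjusted p = 0.0402); the cause was not tested. miR-22-5p turned to -0.21 with library totals, -0.18 without the filter and -0.12 without HC-P tissue replicate 1. miR-7137-3p turned to -0.71, -0.37, -0.14 and -0.15 with library totals, without the filter, with the 6 tissue libraries alone and with DESeq2. Leaving out a tissue library gave -2.35 to 0.068 for novel_414, -0.12 to 0.24 for miR-22-5p, -1.85 to 0.029 for miR-331-3p and -2.38 to 0.15 for miR-455-3p. The positive values of novel_414, miR-331-3p and miR-455-3p came without HC-P tissue replicate 1. With the replicate block, edgeR again called 0 miRNAs. That block pairs libraries of the same number and was fitted on the miRNA counts alone. No paired analysis of the mRNA table was run. Its column names also match small RNA titles, so they were assigned to groups only, and its genes had been selected on the contrast itself. The planned count test on that table was not run, since fewer than 100 low values per library left its steps too few to check as whole reads.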

Other observations

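In exosome libraries the miRNAs that the authors' table relates to the 3 genes were sparse, apart from a pair related to PPP1R3B. miR-22-5p had 215, 273 and 148 reads in HC-L exosomes and 425, 39 and 54 in HC-P exosomes. These reads are not scaled for depth, which ran from 106040 miRNA reads (HC-P exosome replicate 3) to 959599 (HC-P exosome replicate 1). As TMM-scaled CPM, the HC-L exosome libraries stood at 294, 441 and 276 for miR-22-5p. Its CPM values for the HC-P exosome libraries were 390, 165 and 250. The predicted miRNA novel_414 had 21, 19 and 500 reads in HC-L exosomes, the last of these in replicate 3, and 85, 37 and 134 in HC-P exosomes. Scaled in the same way, its HC-L exosome libraries stood at 28.7, 30.7 and 933 CPM. Its CPM values for the HC-P exosome libraries were 78.0, 157 and 621, so replicate 3 was highest for both muscles. miR-331-3p (PPP1R3G) had 12 and miR-455-3p (SLC2A5) 24 reads over all exosome libraries. HC-L and HC-P exosomes were not tested against each other here.

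The genes that lie next to PPP1R3B (TNKS and ERI1), PPP1R3G (LYRM4 and FARS2) and SLC2A5 (SLC2A7 and GPR157) in the RefSeq annotation of pig assembly Sscrofa11.1 are not in the mRNA table.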
